A study of Homo sapiens with 18 samples.

Results

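The genes described here are the 31 human genes, of 58825 counted, that encode the enzymes placing and removing acetyl groups on histone lysines, together with the p160 coactivators that were listed with them. They were chosen by enzyme family as a list of symbols, found through the Ensembl gene identifiers of the count tables, with earlier results of these data known, and the rule itself uses no measured value. They comprise 11 classical histone deacetylases (HDAC1 to HDAC11), 7 sirtuins (SIRT1 to SIRT7), and 13 acetyltransferases and coactivators. RNA was measured in OVCAR-3, an established line of high-grade serous ovarian carcinoma, treated for 4 or 24 h with the vehicle DMSO or with one of the compounds i-BET858 and i-BET151, each at 1 µM. Each of the 6 conditions had 3 libraries, described as biological replicates, and all wells were kept in stripped medium during treatment. i-BET858 and i-BET151 are inhibitors of the BET proteins, and the study calls i-BET858 bivalent. A single cell line and a single dose of each inhibitor were examined, so that neither a dose response nor other cells can be read from these values.

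Acetylation of lysines in histone tails neutralises their positive charge and creates docking sites for bromodomains, among them those of the BET proteins, which BET inhibitors occupy. Acetyltransferases write the mark from acetyl-CoA. They fall into the GNAT family (KAT2A and KAT2B, the catalytic subunits of the SAGA and ATAC complexes), the MYST family (KAT5, KAT6A, KAT6B, KAT7 and KAT8) and the pair EP300 and CREBBP, which acetylate enhancers. Classical deacetylases remove it with a zinc ion, mostly inside the NuRD, SIN3, CoREST and NCoR/SMRT complexes, and sirtuins do so with NAD as a cosubstrate. Readers, writers and erasers thus act on the same residues, and the transcripts of the writers and erasers were examined here while the readers were inhibited.

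The 18 libraries held 27323969 to 46299994 counts on genes, with a median of 32267434. Transcripts of 10 epithelial markers of serous ovarian cells summed to 6823 to 12255 CPM (counts per 1e6 counts of the library, with library sizes scaled by the TMM method of edgeR), with PAX8 at 387 to 612 CPM, whereas 10 markers of immune, endothelial and fibroblast cells summed to 23.5 to 54.2 CPM, most of it COL1A1. KRT8 was the largest part of the epithelial sum, at 3740 to 7369 CPM, so that the sum need not describe the other markers. The epithelial sum moved with treatment: at 4 h it was 8727 to 10257 CPM with DMSO and 11618 to 12255 CPM with i-BET858, and at 24 h 9047 to 10433 CPM with DMSO, 6823 to 7337 CPM with i-BET858 and 6853 to 7403 CPM with i-BET151. The part of this shift in the results was not tested. The 6 libraries with replicate number 3 stood apart. They had counts on 17817 to 20642 genes, against 23674 to 24947 genes in the other 12 libraries. The counts of called members were therefore repeated without them. In bulk RNA, a lower level per cell and fewer cells with the transcript cannot be told apart.

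RefSeq (GRCh38.p14) gave promoter windows for 26 of the 31 genes. The windows of SIRT1, the member with the largest called rise, of EP300, which was lower at 4 h only, and of KAT2A and KAT2B, related GNAT enzymes that moved apart at 24 h, are shown because the results turn on these genes. They hold bases before the transcription start, 5′ to 3′ on the strand of the gene and up to the start except for EP300, with capitals marking GGGCGG or CACGTG on either strand. The positions are chr10:67884406-67884655 (+) for SIRT1, chr22:41092342-41092512 (+) for EP300, chr17:42121368-42121617 (-) for KAT2A and chr3:20040196-20040445 (+) for KAT2B.
SIRT1: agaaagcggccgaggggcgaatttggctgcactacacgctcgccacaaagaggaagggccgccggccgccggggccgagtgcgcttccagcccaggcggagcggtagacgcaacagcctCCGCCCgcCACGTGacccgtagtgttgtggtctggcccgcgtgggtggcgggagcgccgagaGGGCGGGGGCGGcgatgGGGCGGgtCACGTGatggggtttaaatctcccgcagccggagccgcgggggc
EP300: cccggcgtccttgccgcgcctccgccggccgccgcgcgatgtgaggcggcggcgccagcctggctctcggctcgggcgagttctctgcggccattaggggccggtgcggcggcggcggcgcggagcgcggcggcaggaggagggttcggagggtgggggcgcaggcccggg
KAT2A: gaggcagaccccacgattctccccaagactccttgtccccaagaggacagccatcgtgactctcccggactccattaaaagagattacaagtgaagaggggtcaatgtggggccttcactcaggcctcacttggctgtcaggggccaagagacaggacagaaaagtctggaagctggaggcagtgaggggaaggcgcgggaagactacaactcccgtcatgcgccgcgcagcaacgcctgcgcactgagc
KAT2B: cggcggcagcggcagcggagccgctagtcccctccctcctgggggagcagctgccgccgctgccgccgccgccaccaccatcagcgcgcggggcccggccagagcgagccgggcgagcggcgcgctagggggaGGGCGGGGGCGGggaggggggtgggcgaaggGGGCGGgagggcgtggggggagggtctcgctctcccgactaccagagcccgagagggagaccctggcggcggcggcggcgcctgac
GGGCGG, the core of the GC box bound by SP1, occurred 4 times before SIRT1 and 3 times before KAT2B. CACGTG, the E-box bound by the MYC and MAX pair among others, occurred 2 times before SIRT1. The search on both strands also covered the CCAAT box, the ETS core CCGGAAG and the TATA box as TATAAA. None of the 5 motifs was found before KAT2A or in the 171 bases shown for EP300, where the window was ended before an exon of an overlapping microRNA gene, so that the part nearest to the start is not shown and was not searched. Of 35114 RefSeq windows of 250 bases, 42.6% held GGGCGG and 6.35% held CACGTG, so that a match to the GC box was common. The GC content was 72% for SIRT1, 81.3% for EP300, 58.8% for KAT2A and 80.8% for KAT2B, beside a median of 58% over all windows. A match is a description of the letters and not a measured binding site.

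In DMSO at 4 h, all 31 members had counts in all 3 libraries, and HDAC10, a class IIb deacetylase, was near the limit of detection with 2, 2 and 6 counts. Per kilobase of the canonical transcript, HDAC7 had 81.7 ± 5.41 CPM (mean ± SD, n = 3) and HDAC1 71.1 ± 9.90 CPM, 2 values that do not differ beyond their spread. HAT1, which acetylates newly made histone H4, followed with 58.8 ± 4.09 CPM and SIRT2, a mainly cytoplasmic deacetylase, with 49.7 ± 2.93 CPM. SIRT7 and HDAC2 had 32.4 ± 6.30 and 25.9 ± 2.30 CPM per kilobase. SIRT4, a mitochondrial sirtuin, had 0.605 ± 0.322 CPM, and HDAC10 had 0.0391 ± 0.0297 CPM. The order depends on the length taken for a gene: over all merged exons HDAC1 stood first and HDAC7 second, and KAT6B moved from rank 8 to rank 20. HDAC10 had 0 to 0.728 CPM over the 18 libraries, where 3 counts correspond to 0.0648 to 0.110 CPM, and 73.6% of its exon bases lie in exons of other genes. It was filtered out at each time point, and the other 30 members were tested.

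Against DMSO, 20 of the 30 tested members passed the test in at least 1 of the 4 comparisons (called at a Benjamini-Hochberg adjusted p under 0.05 in edgeR's quasi-likelihood test), and 12 also differed by at least 2-fold. HDAC7 and HDAC9 were lower and SIRT1 was higher in all 4. In this fit no member was called higher in one comparison and lower in another. With the replicate number as a block, HDAC1 was called higher with i-BET858 at 4 h and lower at 24 h, and EP300 lower at 4 h and higher at 24 h with both inhibitors. After 4 h with i-BET858, 4 members rose and 8 fell, which is 12 of 30, where 30.8% of all 17192 tested genes were called (14.5% higher and 16.3% lower). After 4 h with i-BET151, 1 rose and 6 fell, 7 of 30, where 16.2% of all genes were called (7.81% higher and 8.43% lower). After 24 h with i-BET858, 9 rose and 7 fell, 16 of 30, beside 41.7% of 17157 genes (20.5% higher and 21.3% lower). After 24 h with i-BET151, 7 rose and 4 fell, 11 of 30, beside 33.8% (17.2% higher and 16.6% lower). At least 2-fold changes were called for 8 and 3 members at 4 h, where 14.1% and 7.1% of all genes had one, and for 5 and 4 members at 24 h, beside 18.8% and 13.7%. At 4 h the 8 became 5 without DMSO replicate 3 or i-BET858 replicate 1, and the 3 became 5 without i-BET151 replicate 3. The 2-fold changes over all genes were not counted in these fits. By the adjusted p alone, 4406, 4264 and 2817 genes were called there. The groups of 3 libraries did not overlap for 15 and 14 members at 4 h, where 44.6% and 36.7% of all genes did not, and for 19 and 16 members at 24 h, beside 55.1% and 48.9%. The comparisons with i-BET858 and i-BET151 share their DMSO libraries and are given side by side.

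At 4 h most calls among the writers were falls, while the erasers were called in both directions. Of the 13 acetyltransferases and coactivators, 1 rose and 6 fell with i-BET858, with a median log2 fold change of −0.33, while of 17 tested deacetylases and sirtuins 3 rose and 2 fell, with a median of 0.11. The median over all genes was 0.02. With i-BET151 the medians were −0.10 and 0.18, beside 0.01 over all genes, and the counts were 0 up and 4 down against 1 up and 2 down. At 24 h the acetyltransferases and coactivators counted 5 up and 3 down with i-BET858 against 4 up and 1 down with i-BET151. The deacetylases and sirtuins counted 4 up and 4 down against 3 up and 3 down. The medians of the 2 sets at 24 h were 0.22 and 0.07 with i-BET858, beside −0.01 over all genes. With i-BET151 they were 0.24 and 0.29, beside 0.005. No test of the groups was made. The libraries of i-BET858 at 4 h also had the largest share of counts in their 100 most abundant genes, 22.1 to 23.1% against 18.04 to 19.2% with DMSO and 20.2 to 21.5% with i-BET151. When scaled by total library size, the median of all genes there moved from 0.02 to −0.14, the rises of HDAC5, SIRT2 and NCOA3 were no longer called, and 1 member rose and 9 fell. The share of higher calls over all genes went from 47.1% to 32.0%. Without replicate 3, 14, 10, 23 and 20 members were called for i-BET858 and i-BET151 at 4 h and at 24 h, beside 41.9%, 25.9%, 60.7% and 54.2% of all genes. The members that gained a call there were HDAC4, SIRT4 and SIRT6 for i-BET858 at 4 h, SIRT4, SIRT7 and CREBBP for i-BET151 at 4 h, HDAC3, HDAC6, HDAC8, HDAC11, SIRT4, KAT8 and CREBBP for i-BET858 at 24 h, and HDAC1, HDAC3, HDAC6, HDAC8, SIRT4, SIRT7, HAT1, KAT6B and CREBBP for i-BET151 at 24 h. With the replicate block at 4 h, 9 members rose and 9 fell with i-BET858 (45.4% of all genes called), so that falls no longer outnumbered rises over all members. All 6 added calls were erasers, with HDAC1, HDAC3, HDAC6, SIRT4 and SIRT7 higher and SIRT6 lower. The acetyltransferases and coactivators kept their 1 rise and 6 falls. With i-BET151 4 rose and 8 fell (32.7%), where the block added rises of SIRT4, SIRT7 and KAT8 and falls of KAT5 and CREBBP. At 24 h with the block, 13 rose and 9 fell with i-BET858 (52% of all genes), and 13 rose and 5 fell with i-BET151 (45.9%). Leaving out DMSO replicate 1 or 3 or i-BET151 replicate 1 or 2 left 3 members called for i-BET151 at 4 h. In these fits 1685 to 1934 genes were called in all in place of 2791. The 3 members were SIRT1, HDAC7 and HDAC9, so that none of the 4 falls among acetyltransferases and coactivators was called there.

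**Figure D1:**
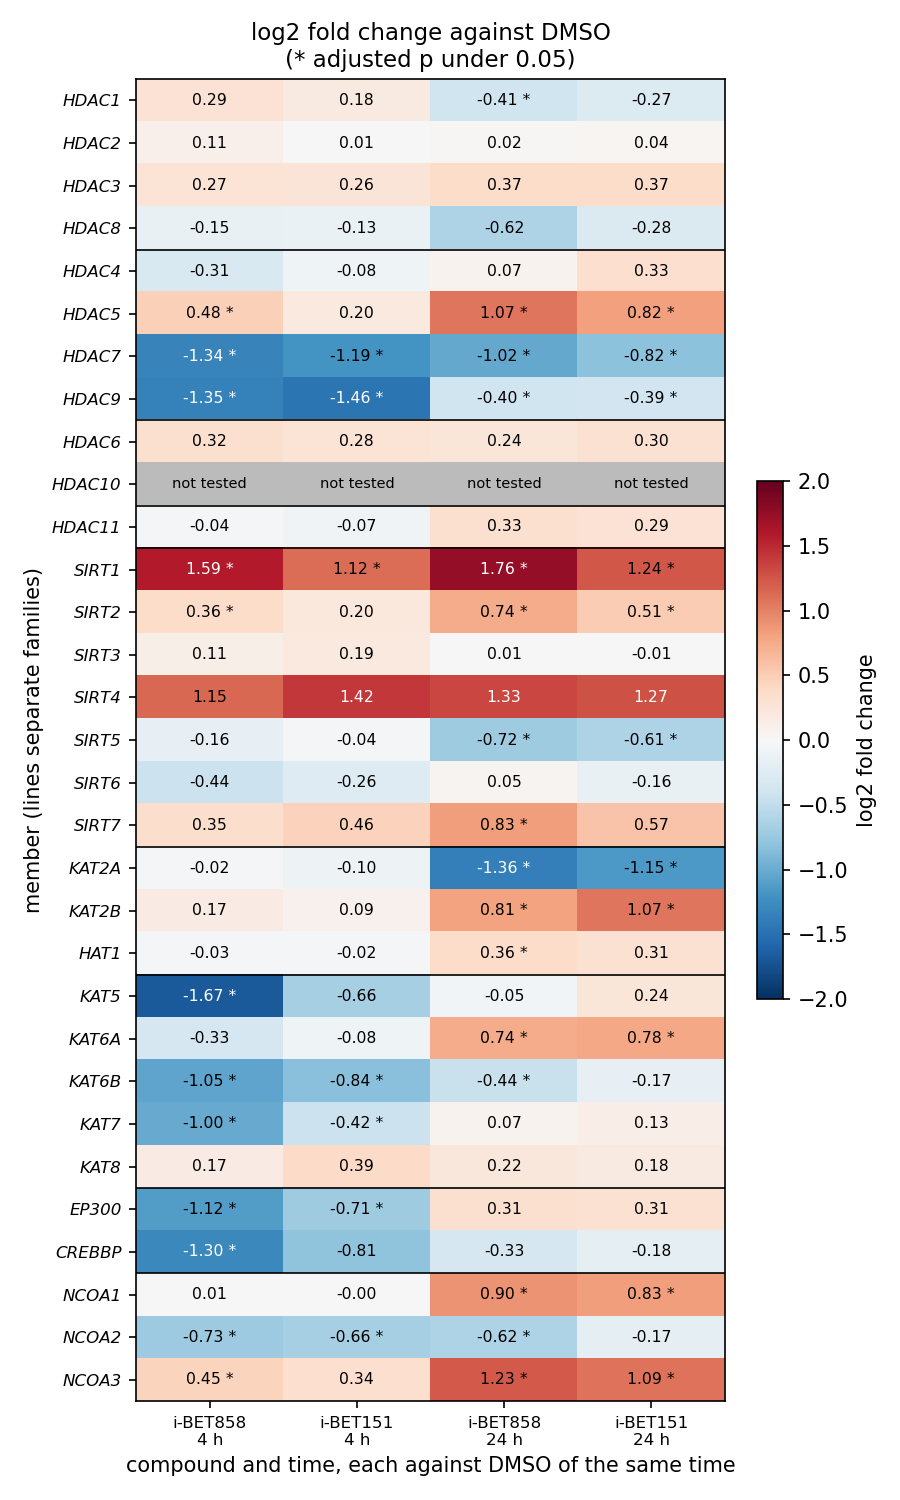
Log2 fold change against DMSO of the same time for each member (rows, with lines between enzyme families) in each compound and time (columns), coloured from blue (lower) to red (higher), with a star at an adjusted p under 0.05. HDAC7 and HDAC9 are starred below zero and SIRT1 above zero in all 4 columns, and KAT2A is near zero at 4 h and below −1 at 24 h.

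**Figure D2:**
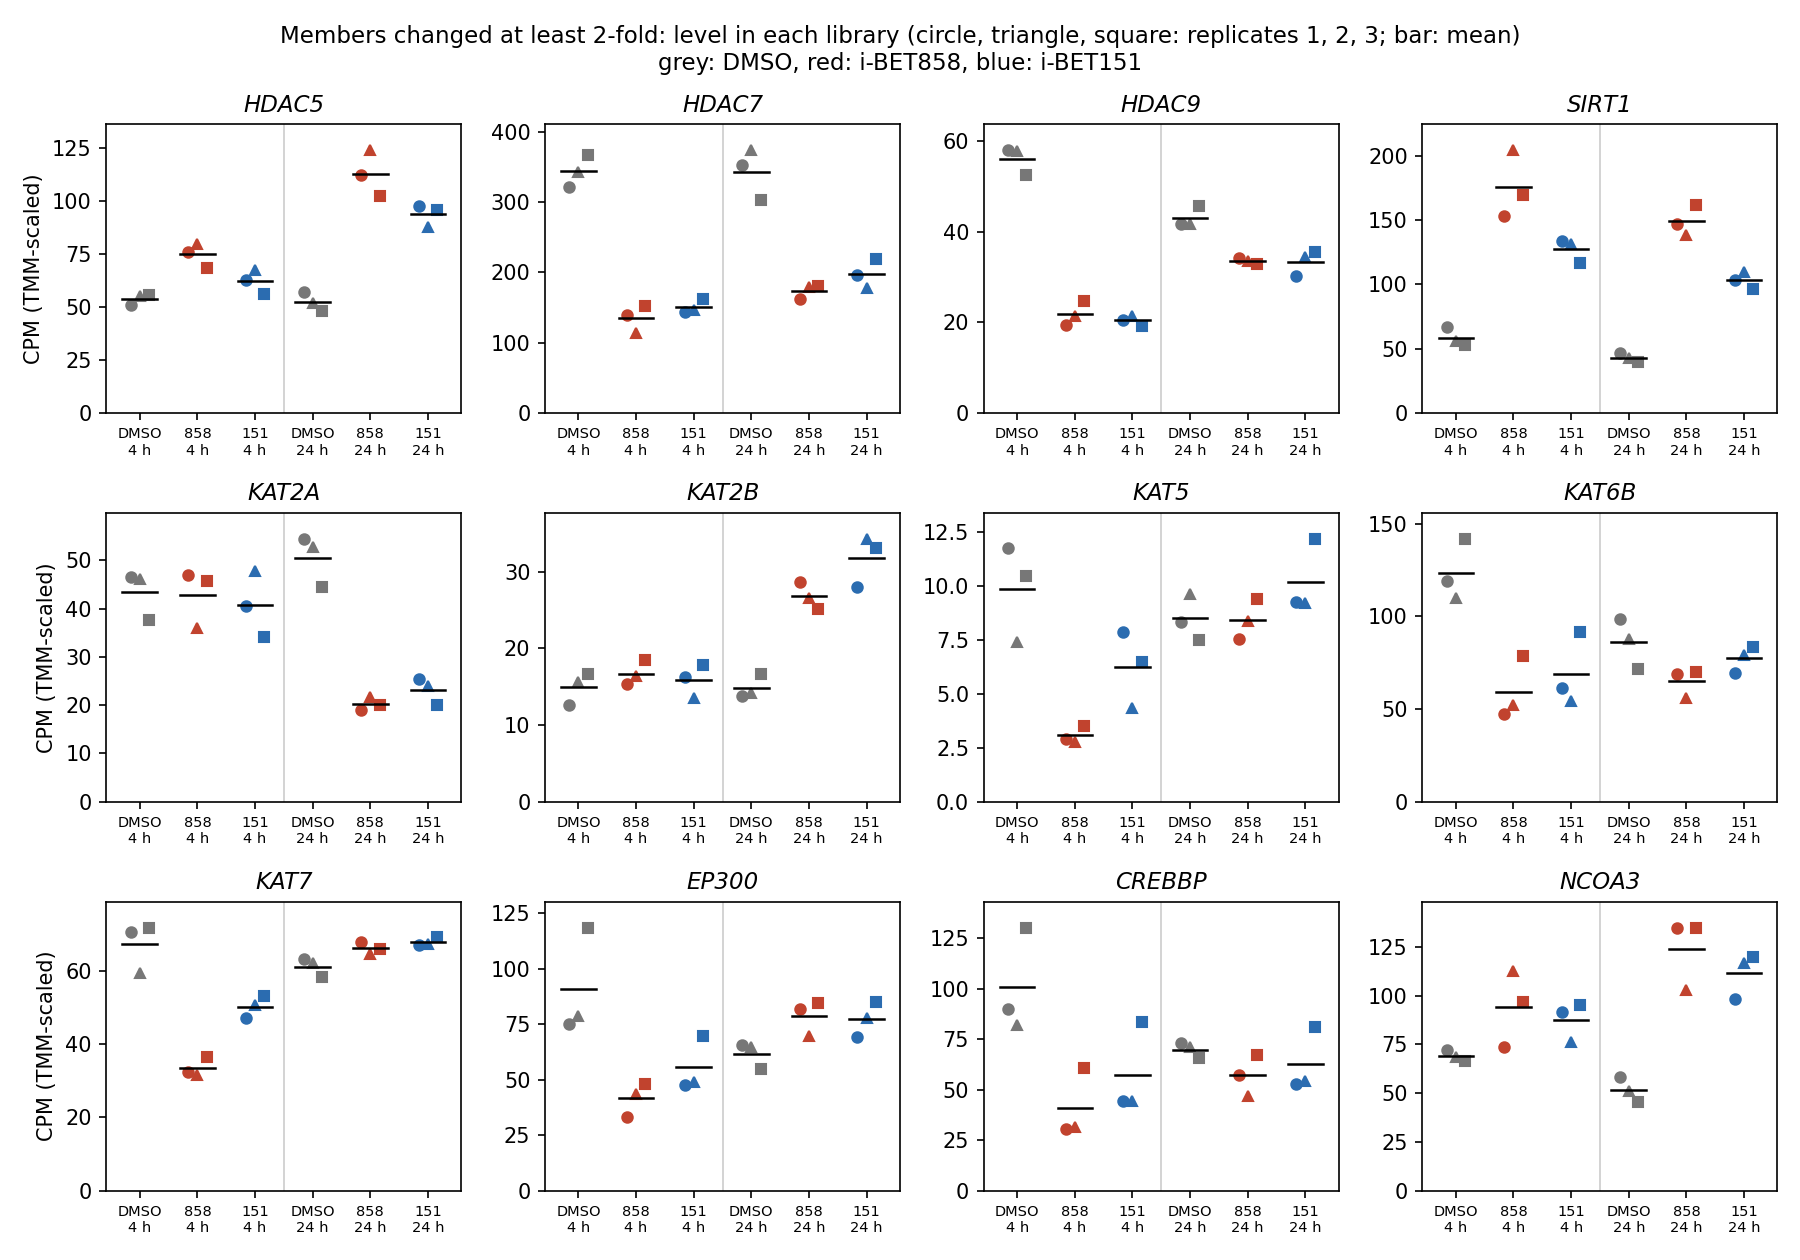
Level in CPM (vertical axes, starting at 0) of the 12 members that differed from DMSO by at least 2-fold in any comparison, with a circle, triangle and square for replicates 1, 2 and 3 and a bar for the mean of each condition. All treated libraries of HDAC7, HDAC9 and SIRT1 lie outside the range of the DMSO libraries of their time, and those of KAT2A and KAT2B do so at 24 h.

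The class I deacetylases, the catalytic cores of NuRD, SIN3, CoREST and NCoR/SMRT, had small differences from DMSO, and 1 of 4 passed the test. HDAC1 was at 171, 168 and 159 CPM in the DMSO libraries at 24 h, at 132, 130.0 and 124 CPM with i-BET858 and at 149, 148 and 124 CPM with i-BET151. All 3 libraries of each drug lay below all DMSO libraries. HDAC1 fell by 0.41 ± 0.10 on the log2 scale (standard error) with i-BET858 at 24 h (adjusted p = 0.0058), to 0.755 of the DMSO level. With i-BET151 the value was −0.27 (adjusted p = 0.053, and 0.012 with the replicate block). At 4 h HDAC1 was at 167, 158 and 127 CPM with DMSO and at 203, 185 and 165 CPM with i-BET858, a log2 value of 0.29 (adjusted p = 0.14, and 0.0049 with the block).

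HDAC2, the paralogue of HDAC1 and the member of the class with the most counts, did not pass the test and had values from 0.01 to 0.11 in the 4 comparisons. It was at 276, 270.1 and 228 CPM with DMSO at 24 h and at 285, 295 and 224 CPM with i-BET858, with the lowest value of each group in replicate 3. HDAC3, the enzyme of the NCoR/SMRT complexes, had values of 0.27 and 0.26 at 4 h and of 0.37 and 0.37 at 24 h, none past the threshold (lowest adjusted p = 0.054). With the block 3 of these 4 were called, at adjusted p of 0.035, 0.0033 and 0.004 in the order i-BET858 at 4 h, i-BET858 at 24 h and i-BET151 at 24 h. HDAC8, which acts outside these complexes, had −0.15, −0.13, −0.62 and −0.28, and the value with i-BET858 at 24 h was called with the block (−0.60, adjusted p = 0.0096), without the filter on low counts, without replicate 3 and without DMSO replicate 3 (adjusted p = 0.0433 for the last).

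The class IIa deacetylases shuttle between nucleus and cytoplasm, bind MEF2 factors and have little catalytic activity of their own. HDAC7 and HDAC9 fell with both inhibitors at both times, and HDAC5 rose. HDAC7 (12:47782722–47833132, minus strand, GRCh38) was at 321, 344 and 367 CPM in the DMSO libraries at 4 h, at 140.0, 113 and 153 CPM with i-BET858 and at 144, 147 and 163 CPM with i-BET151. The highest treated library was below the lowest DMSO library by a wide margin. HDAC7 fell by 1.34 ± 0.13 with i-BET858 (adjusted p = 2.2e-05), to 0.395 of DMSO, and by 1.19 ± 0.13 with i-BET151 (adjusted p = 0.00014). At 24 h it was at 354, 374 and 303 CPM with DMSO, 162, 179.6 and 181 CPM with i-BET858 and 197, 178 and 219 CPM with i-BET151. The treated libraries again lay below all DMSO libraries, and the falls were 1.02 ± 0.11 and 0.82 ± 0.11 (adjusted p = 5e-05 and 0.00033). Of the exon bases of HDAC7, 11.2% lie in exons of other genes, whose reads cannot be told apart without strand.

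HDAC9 (7:18086949–19002416, plus strand) is the longest member at 915 kb. At 4 h it was at 58.0, 57.8 and 52.4 CPM with DMSO, 19.4, 21.5 and 24.7 CPM with i-BET858 and 20.6, 21.4 and 19.2 CPM with i-BET151. Both treated groups lay far below DMSO and overlapped each other. The falls were 1.35 ± 0.14 and 1.46 ± 0.14 (adjusted p = 2.8e-05 and 5.3e-05), to 0.391 and 0.363 of DMSO. After 24 h the DMSO libraries were at 41.6, 41.7 and 45.7 CPM, and the drug libraries at 34.1, 33.6 and 32.9 CPM and 30.1, 34.4 and 35.6 CPM. The difference was smaller there, −0.40 ± 0.10 and −0.39 ± 0.10 (adjusted p = 0.01 and 0.015). Both calls at 24 h were lost without the filter on low counts (largest adjusted p = 0.0558), and that of i-BET151 also when i-BET151 replicate 1 was left out (adjusted p = 0.0661).

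HDAC5, like HDAC7 a MEF2 corepressor, was at 57.2, 51.7 and 48.1 CPM with DMSO at 24 h, 112, 124 and 102 CPM with i-BET858 and 97.4, 87.8 and 95.5 CPM with i-BET151. It rose 2.10-fold and 1.76-fold, with log2 values of 1.07 ± 0.11 and 0.82 ± 0.11 (adjusted p = 2.6e-05 and 0.00024). At 4 h it was at 51.1, 55.3 and 55.4 CPM with DMSO and at 76.0, 79.8 and 68.5 CPM with i-BET858, and the rise of 0.48 ± 0.12 (adjusted p = 0.0099) missed the threshold without DMSO replicate 1 (adjusted p = 0.0513). With i-BET151 at 4 h it had 0.20 (adjusted p = 0.3). The exons of HDAC5 share 24.0% of their bases with other genes, among them G6PC3. HDAC4, the remaining class IIa enzyme, was not called, with values from −0.31 to 0.33. For i-BET858 at 4 h its value ran from −0.58 to −0.13 with 1 library left out, and it was called without i-BET858 replicate 3 (−0.58, adjusted p = 0.0447).

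HDAC6, the class IIb deacetylase of tubulin, and HDAC11, the class IV enzyme, passed the test in none of the 4 comparisons. HDAC6 was at 23.2, 24.5 and 21.2 CPM with DMSO at 4 h and at 29.6, 29.9 and 26.0 CPM with i-BET858, groups that did not overlap, with a log2 value of 0.32 (adjusted p = 0.11, and 0.027 with the block). HDAC11 had −0.04 and −0.07 at 4 h. Its values at 24 h were 0.33 and 0.29, where the DMSO libraries spread over 37.1, 33.3 and 22.6 CPM. With the block, HDAC11 was called for i-BET858 (0.34, adjusted p = 0.039) and HDAC6 for i-BET151 (0.30, adjusted p = 0.021) at 24 h.

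Among the sirtuins, SIRT1, the nuclear NAD-dependent deacetylase that acts on histones, p53 and FOXO factors, rose in all 4 comparisons. SIRT1 (10:67884656–67918390, plus strand) was at 67.0, 55.8 and 52.5 CPM with DMSO at 4 h, 153, 204 and 169.8 CPM with i-BET858 and 134, 131 and 117 CPM with i-BET151. Every treated library was above every DMSO library, and the i-BET858 libraries were above those of i-BET151. It rose 3.01-fold with i-BET858 (log2 1.59 ± 0.14, adjusted p = 1.5e-05) and 2.17-fold with i-BET151 (log2 1.12 ± 0.14, adjusted p = 0.00038). At 24 h it was at 46.7, 42.5 and 39.3 CPM with DMSO, 147, 138 and 162 CPM with i-BET858 and 103, 109 and 96.4 CPM with i-BET151. The same order held, with rises of 3.38-fold (log2 1.76 ± 0.10, adjusted p = 1.1e-06) and 2.37-fold (log2 1.24 ± 0.10, adjusted p = 1.4e-05). The exons of SIRT1 share no bases with another annotated gene, and the rise was called in every alternative run.

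SIRT2 rose less than SIRT1. It was at 103, 103 and 117 CPM with DMSO at 24 h, 181, 195 and 178 CPM with i-BET858 and 156, 146 and 164 CPM with i-BET151. The 3 groups did not overlap, and SIRT2 rose 1.67-fold and 1.42-fold (log2 0.74 ± 0.10 and 0.51 ± 0.10, adjusted p = 0.0002 and 0.0029). At 4 h the rise with i-BET858 was 0.36 ± 0.11 (adjusted p = 0.023), and it missed the threshold when DMSO replicate 1 or 2 or i-BET858 replicate 1 or 3 was left out (adjusted p up to 0.104), as it did without the filter on low counts. With i-BET151 the value at 4 h was 0.20 (adjusted p = 0.23).

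SIRT7, a nucleolar sirtuin, was at 66.0, 69.5 and 36.7 CPM with DMSO at 24 h and at 104, 124 and 86.3 CPM with i-BET858. The lowest library of each group was replicate 3, and the groups did not overlap. It rose 1.78-fold (log2 0.83 ± 0.25, adjusted p = 0.021), and without i-BET858 replicate 1 or 2 the adjusted p was up to 0.0799 and with total library size 0.0549. With i-BET151 the value was 0.57 (adjusted p = 0.11, and 0.0017 with the block). With the block SIRT7 was also called at 4 h, for i-BET858 (0.34, adjusted p = 0.016) and for i-BET151 (0.44, adjusted p = 0.0057).

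SIRT5, a mitochondrial desuccinylase, went the other way. It was at 22.0, 19.9 and 17.4 CPM with DMSO at 24 h, 15.3, 13.4 and 8.31 CPM with i-BET858 and 14.5, 13.1 and 11.8 CPM with i-BET151. All treated libraries were below all DMSO libraries, and SIRT5 fell by 0.72 ± 0.21 and 0.61 ± 0.21 (adjusted p = 0.017 and 0.042). Leaving out DMSO replicate 1 ended the first call (adjusted p = 0.0643). The second was lost without any 1 of DMSO replicates 1 and 2, i-BET858 replicate 2 and the 3 i-BET151 libraries (adjusted p up to 0.130), and with total library size (adjusted p = 0.0519).

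SIRT4 was low, from 0.461, 1.19 and 0.564 CPM with DMSO at 4 h to 3.27, 3.45 and 1.32 CPM with i-BET858 at 24 h, and its replicates spread widely. Its log2 values of 1.15, 1.42, 1.33 and 1.27 had standard errors near 0.52 and did not pass the test (adjusted p from 0.067 to 0.12). All 4 were called with the replicate block, at adjusted p of 0.029, 0.011, 0.007 and 0.015. The mitochondrial SIRT3 had values between −0.01 and 0.19, and the nuclear SIRT6, which acts at telomeres and in DNA repair, between −0.44 and 0.05, where the value with i-BET858 at 4 h was called with the block (−0.42, adjusted p = 0.032), with total library size and without replicate 3.

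The GNAT enzymes KAT2A (GCN5) and KAT2B (PCAF), alternative catalytic subunits of SAGA and ATAC, did not differ detectably from DMSO at 4 h and moved apart at 24 h. KAT2A (17:42113111–42121367, minus strand) was at 54.4, 52.8 and 44.5 CPM with DMSO at 24 h, 19.0, 21.7 and 20.0 CPM with i-BET858 and 25.5, 23.9 and 20.1 CPM with i-BET151. The highest treated library was well below the lowest DMSO library. KAT2A fell by 1.36 ± 0.13 with i-BET858 (adjusted p = 1.4e-05), to 0.389 of DMSO, and by 1.15 ± 0.12 with i-BET151 (adjusted p = 7.3e-05), to 0.451. At 4 h it was at 46.6, 46.2 and 37.7 CPM with DMSO and at 47.0, 36.1 and 45.7 CPM with i-BET858, overlapping groups with a log2 value of −0.02 (95% interval −0.37 to 0.34). With i-BET151 at 4 h the value was −0.10 (95% interval −0.45 to 0.26).

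KAT2B (3:20040446–20154404, plus strand) was at 13.8, 14.1 and 16.6 CPM with DMSO at 24 h, 28.7, 26.5 and 25.1 CPM with i-BET858 and 28.0, 34.2 and 33.0 CPM with i-BET151. Every treated library was above every DMSO library, and KAT2B rose 1.75-fold and 2.10-fold (log2 0.81 ± 0.13 and 1.07 ± 0.13, adjusted p = 0.00062 and 0.00016). At 4 h its values were 0.17 (95% interval −0.21 to 0.54) and 0.09 (95% interval −0.29 to 0.46). HAT1 rose 1.28-fold with i-BET858 at 24 h (log2 0.36 ± 0.13, adjusted p = 0.041), from 101, 98.2 and 85.0 to 126, 133 and 115 CPM. That call missed the threshold without any 1 of the 3 DMSO libraries or of i-BET858 replicates 1 and 2 (adjusted p up to 0.136), and with total library size (adjusted p = 0.168). With i-BET151 HAT1 had 0.31 (adjusted p = 0.086, and 0.01 with the block).

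Of the 5 MYST acetyltransferases, 3 fell with i-BET858 at 4 h and none rose, where 16.3% of all genes were called lower and 14.5% higher. With i-BET151 2 fell and none rose, beside 8.43% and 7.81% of all genes. KAT5 (TIP60), the catalytic subunit of NuA4, was at 11.8, 7.42 and 10.4 CPM with DMSO, 2.92, 2.79 and 3.52 CPM with i-BET858 and 7.85, 4.36 and 6.49 CPM with i-BET151. The i-BET858 libraries lay below both other groups, while i-BET151 and DMSO overlapped. KAT5 fell by 1.67 ± 0.27 with i-BET858 (adjusted p = 0.00075), to 0.313 of DMSO, the largest fall among the members in that comparison. With i-BET151 it had −0.66 (adjusted p = 0.12, and 0.015 with the block). At 24 h its values were −0.05 and 0.24, with libraries of 8.33, 9.63 and 7.52 CPM with DMSO and 7.53, 8.36 and 9.39 CPM with i-BET858, which overlapped. Of the exon bases of KAT5, 38.6% lie in exons of other genes, among them RNASEH2C on the opposite strand, so that its counts may hold or lack reads of the neighbour.

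KAT7 (HBO1), which acetylates histone H3 and H4 at replication origins and promoters, was at 70.6, 59.4 and 71.7 CPM with DMSO at 4 h, 32.3, 31.6 and 36.4 CPM with i-BET858 and 47.1, 50.6 and 53.2 CPM with i-BET151. The 3 groups were ordered without overlap, with i-BET151 between the others. With i-BET858 KAT7 fell by 1.00 ± 0.13 (adjusted p = 0.00015). The fall with i-BET151 was 0.42 ± 0.13 (adjusted p = 0.042). The call for i-BET151 was lost without DMSO replicate 1 or 3, i-BET858 replicate 1 or any 1 of the i-BET151 libraries (adjusted p up to 0.157), and without the filter on low counts (adjusted p = 0.0807). At 24 h KAT7 was at 63.2, 62.1 and 58.3 CPM with DMSO and at 67.8, 64.6 and 66.1 CPM with i-BET858, and its log2 values of 0.07 and 0.13 were not called.

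KAT6A and KAT6B, paralogous catalytic subunits of the BRPF1 complexes, were called in opposite directions with i-BET858 at 24 h. At 4 h the values of both genes were negative with both compounds. KAT6B was at 119, 109.8 and 142 CPM with DMSO at 4 h, 47.3, 52.3 and 78.6 CPM with i-BET858 and 61.4, 54.4 and 91.5 CPM with i-BET151, with the highest value of each group in replicate 3 and no overlap with DMSO. It fell by 1.05 ± 0.23 and by 0.84 ± 0.23 (adjusted p = 0.0048 and 0.028). At 24 h the fall with i-BET858 was 0.44 ± 0.13 (adjusted p = 0.022). The fall with i-BET151 at 4 h missed the threshold without DMSO replicate 1 or 3 or i-BET151 replicate 1 or 2 (adjusted p up to 0.106), and that with i-BET858 at 24 h without DMSO replicate 1 or 2 or i-BET858 replicate 2 (adjusted p up to 0.0948) and in the fit of all 18 libraries (adjusted p = 0.12).

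KAT6A was at 73.3, 73.4 and 66.9 CPM with DMSO at 24 h, 134, 93.5 and 139 CPM with i-BET858 and 111, 140.0 and 121 CPM with i-BET151. All treated libraries were above the DMSO libraries, and KAT6A rose 1.67-fold and 1.72-fold (log2 0.74 ± 0.15 and 0.78 ± 0.15, adjusted p = 0.0023 and 0.0022). At 4 h the DMSO libraries were already at 116, 95.8 and 139 CPM, and the values of −0.33 and −0.08 were not called. KAT8 (MOF), which acetylates lysine 16 of histone H4, was not called in any of the 4 comparisons and had values from 0.17 to 0.39, the latter called with the block alone (0.37, adjusted p = 0.042).

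EP300 and CREBBP, the paralogous acetyltransferases of enhancers, both fell with i-BET858 at 4 h. Neither was called at 24 h in the edgeR fit of the 9 libraries without the block. The change of the i-BET858 effect between the times was called for EP300 (1.48) and not for CREBBP (1.01, edgeR adjusted p = 0.065). EP300 (22:41092592–41180077, plus strand) was at 75.1, 78.5 and 118 CPM with DMSO at 4 h, 33.2, 43.6 and 48.0 CPM with i-BET858 and 47.6, 49.1 and 69.5 CPM with i-BET151. Replicate 3 was the highest of each group, and no treated library reached the lowest DMSO library. EP300 fell by 1.12 ± 0.22 with i-BET858 (adjusted p = 0.0024), to 0.461 of DMSO, and by 0.71 ± 0.22 with i-BET151 (adjusted p = 0.045). The latter missed the threshold without any 1 of the 3 DMSO libraries, i-BET858 replicate 2 or i-BET151 replicate 1 or 2 (adjusted p up to 0.174), and with the 2 groups alone (adjusted p = 0.0515). At 24 h EP300 was at 65.5, 64.6 and 54.6 CPM with DMSO, 81.7, 69.5 and 84.5 CPM with i-BET858 and 69.3, 77.8 and 85.0 CPM with i-BET151. The treated libraries were then above DMSO, by 0.31 and 0.31 on the log2 scale, which was not called (adjusted p = 0.054 and 0.068). With the replicate block both were called (adjusted p = 0.031 and 0.039).

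CREBBP was at 89.9, 81.9 and 130.2 CPM with DMSO at 4 h, 30.3, 31.3 and 60.8 CPM with i-BET858 and 44.6, 44.2 and 83.4 CPM with i-BET151. Replicate 3 was again the highest of each group, and for i-BET151 it overlapped with DMSO. CREBBP fell by 1.30 ± 0.32 with i-BET858 (adjusted p = 0.0097), to 0.407 of DMSO. With i-BET151 the value of −0.81 ± 0.32 did not pass the test (adjusted p = 0.11), and with the block it did (−0.85, adjusted p = 2.4e-05). After 24 h the values were −0.33 and −0.18 (adjusted p = 0.17 and 0.49), and the first was called with the block (−0.35, adjusted p = 0.039).

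The p160 coactivators, which bind agonist-bound nuclear receptors and recruit EP300 and CREBBP, split into NCOA1 and NCOA3 on one side and NCOA2 on the other. NCOA3 (AIB1) was at 58.4, 50.9 and 45.4 CPM with DMSO at 24 h, 135, 103 and 135 CPM with i-BET858 and 98.3, 117 and 120.0 CPM with i-BET151. All treated libraries were above DMSO, and NCOA3 rose 2.34-fold and 2.13-fold (log2 1.23 ± 0.14 and 1.09 ± 0.14, adjusted p = 5.7e-05 and 0.0002). At 4 h its rise with i-BET858 was 0.45 ± 0.16 (adjusted p = 0.049). That call was lost in 7 of the 9 fits with 1 library left out (all but i-BET858 replicate 1 and i-BET151 replicate 3, adjusted p up to 0.193) and without replicate 3 (0.40, adjusted p = 0.087), and also with the 2 groups alone. With i-BET151 at 4 h NCOA3 had 0.34 (adjusted p = 0.17).

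NCOA1 was at 33.5, 31.5 and 26.1 CPM with DMSO at 24 h, 62.4, 53.8 and 58.8 CPM with i-BET858 and 51.2, 57.0 and 55.9 CPM with i-BET151. All treated libraries were above DMSO, while those of the drugs overlapped each other, and NCOA1 rose 1.87-fold and 1.78-fold (log2 0.90 ± 0.11 and 0.83 ± 0.11, adjusted p = 0.0001 and 0.00028). At 4 h NCOA1 was at 32.1, 42.7 and 50.7 CPM with DMSO, and the 95% intervals of its log2 fold changes were −0.42 to 0.44 with i-BET858 and −0.44 to 0.43 with i-BET151. NCOA2 was at 86.6, 78.0 and 93.3 CPM with DMSO at 4 h, 42.5, 50.4 and 62.4 CPM with i-BET858 and 53.1, 44.01 and 66.0 CPM with i-BET151. All treated libraries were below DMSO, and NCOA2 fell by 0.73 ± 0.18 and 0.66 ± 0.18 (adjusted p = 0.0094 and 0.027). The fall with i-BET151 missed the threshold without DMSO replicate 1 or 3 or i-BET151 replicate 1 or 2 (adjusted p up to 0.106). At 24 h the fall of NCOA2 with i-BET858 was 0.62 ± 0.15 (adjusted p = 0.0067), and it had −0.17 with i-BET151 (adjusted p = 0.41).

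Whether the effect of an inhibitor changed between 4 and 24 h was tested by the interaction of compound and time over all 18 libraries, in which a positive value means a higher log2 fold change at 24 h. For i-BET858, 12 of 31 members were called, 10 with a positive and 2 with a negative value, where 27.2% of 18154 genes were called (14.6% positive and 12.6% negative). For i-BET151, 8 of 31 were called, 7 positive and 1 negative, where 13.8% of genes were called (6.99% and 6.82%), and 13 with the replicate block (25.2% of genes). KAT5 (1.67 ± 0.32, adjusted p = 0.00093), EP300 (1.48 ± 0.26, adjusted p = 0.00042) and KAT7 (1.12 ± 0.14, adjusted p = 2.2e-05) had the largest positive values for i-BET858, and all 3 had fallen at 4 h. KAT2A had the most negative value, −1.30 ± 0.21 (adjusted p = 0.00019) for i-BET858 and −1.03 ± 0.21 (adjusted p = 0.0034) for i-BET151. SIRT1 and HDAC7, which were called at both times, had interaction values of 0.21 and 0.36 for i-BET858 that did not pass the test (adjusted p = 0.42 and 0.12).

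The vehicle libraries of the 2 times, which enter these values, were also compared with each other. Between 24 and 4 h in DMSO, 0 of 31 members were called by edgeR (0.0386% of all genes), with 9 members at an unadjusted p under 0.05 (9.17% of all genes), 0 calls by DESeq2 (1.34% of all genes) and 2 with the block (2.07%), and 11 members whose groups did not overlap (18.4% of all genes). KAT6A had −0.72 (−0.70, adjusted p = 0.037 with the block), EP300 −0.56, CREBBP −0.53, KAT6B −0.52, NCOA1 −0.46, SIRT1 −0.45 (−0.45, adjusted p = 0.042 with the block), NCOA3 −0.42 and HDAC9 −0.38. In these 8 genes other than NCOA1 all 3 DMSO libraries at 24 h lay below those at 4 h, as they did for NCOA2. For EP300, CREBBP, KAT6A and KAT6B replicate 3 was the highest DMSO library at 4 h. The DMSO libraries of SIRT2, SIRT3 and SIRT5 at 24 h lay above those at 4 h. These 3 genes were at 86.3 to 96.4, 15.5 to 18.2 and 9.81 to 16.5 CPM in DMSO at 4 h. At 24 h they were at 103 to 117, 18.8 to 20.4 and 17.4 to 22.0 CPM. The part of the vehicle in the interaction values was not tested. Without replicate 3, 17 interactions were called for i-BET858 and 10 for i-BET151 (40.6% and 26.3% of all genes), but those of NCOA1 (0.59, adjusted p = 0.088) and NCOA3 (0.70, adjusted p = 0.052) for i-BET151 were not.

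**Figure D3:**
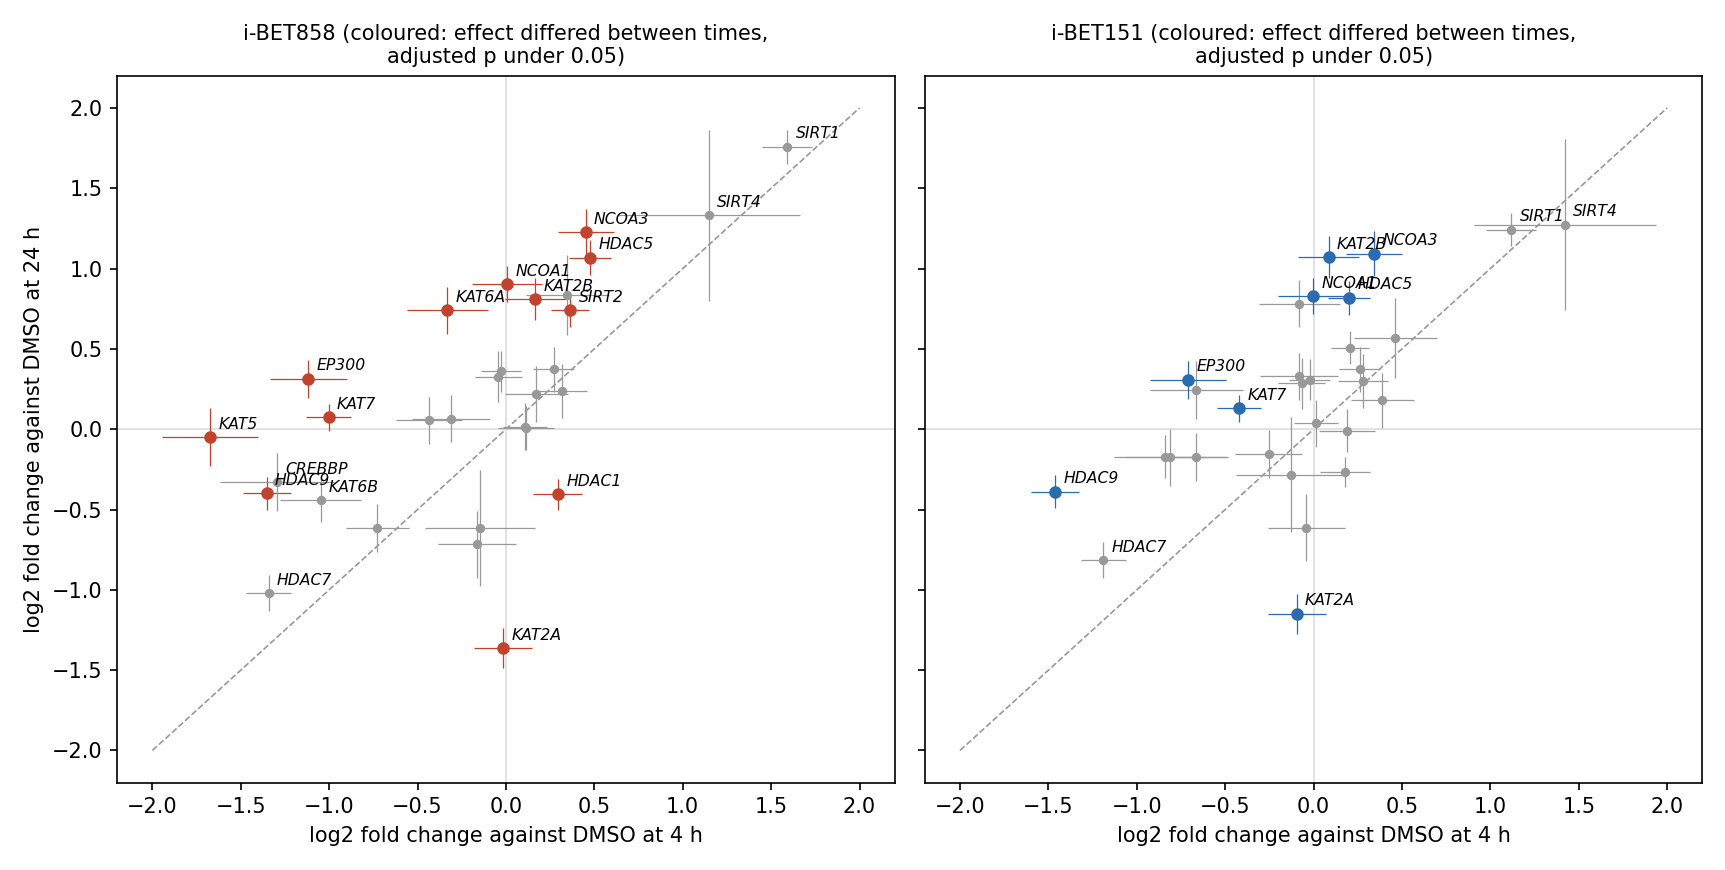
Log2 fold change against DMSO at 4 h (horizontal axis) and at 24 h (vertical axis) of the 30 members tested at both times, for i-BET858 (left) and i-BET151 (right), with standard errors, a dashed line of equal effects, and colour where the drug-by-time interaction had an adjusted p under 0.05. KAT5, EP300 and KAT7 lie above the line for i-BET858, and KAT2A lies below it for both compounds.

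The inhibitors were compared directly at the same dose and times, over 30 members at each time and with p adjusted over all genes tested. In the edgeR fit of the 9 libraries of a time, no member was called at 4 h (0.971% of all genes called) or at 24 h (0.21%), while 4 members at each time had an unadjusted p under 0.05 (11.9% and 11.4% of all genes), DESeq2 called 2 and 1 (5.21% and 2.81% of all genes), and the fit with the replicate block called 5 and 1 (9.63% and 4.37%). The shares over all genes rest on 167 and 36 called genes, and with 1 library left out 0 to 129 were called at 4 h (0 without any 1 of the i-BET858 libraries or i-BET151 replicate 2) and 1 to 110 at 24 h. Over the members the difference of i-BET858 from i-BET151 ran from −1.01 to 0.47 at 4 h (median −0.04) and from −0.44 to 0.52 at 24 h (median −0.02). The 95% interval lay within 2-fold in either direction for 27 of 30 members at 4 h and for 28 of 30 at 24 h, so that larger differences between the compounds can be bounded for most members but small ones cannot. The groups of the compounds did not overlap for 5 members at 4 h (16.8% of all genes) and 3 at 24 h (19.5%).

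The largest differences were in genes already described. KAT5 had −1.01 (95% interval −1.60 to −0.42, adjusted p = 0.12) at 4 h, lower with i-BET858, and KAT7 had −0.58 (−0.86 to −0.30, adjusted p = 0.059). SIRT1 was higher with i-BET858 by 0.47 at 4 h (0.16 to 0.78, adjusted p = 0.16) and by 0.52 at 24 h (0.29 to 0.74, adjusted p = 0.078). With the block, SIRT1 (0.47, adjusted p = 0.015), KAT5 (−0.97, 0.0075), KAT7 (−0.58, 0.0027), EP300 (−0.40, 0.029) and CREBBP (−0.49, 0.0089) were called at 4 h, and SIRT1 (0.52, 0.012) at 24 h. Without the block EP300 and CREBBP had adjusted p of 0.52 and 0.65, and with 1 library left out their values ran from −0.52 to −0.21 and from −0.89 to −0.11. KAT7 at 4 h was called in 7 of 9 alternatives with other tools, filters, scalings or library sets (adjusted p from 0.0027 to 0.13). SIRT1 was also called at 24 h when DMSO replicate 3 was left out (0.52, adjusted p = 0.0494). NCOA2 had −0.44 at 24 h (−0.77 to −0.12, adjusted p = 0.27). For HDAC7 the difference was −0.15 (−0.43 to 0.12) at 4 h and −0.20 (−0.45 to 0.04) at 24 h, and for KAT2A at 24 h −0.21 (−0.49 to 0.06). Over all genes, the share of calls that were higher with i-BET858 was 42.5% at 4 h and 44.4% at 24 h, against 16.6% and 26.8% when scaled by total library size, and 76.9% of 13 calls at 24 h with DESeq2's size factors.

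**Figure D4:**
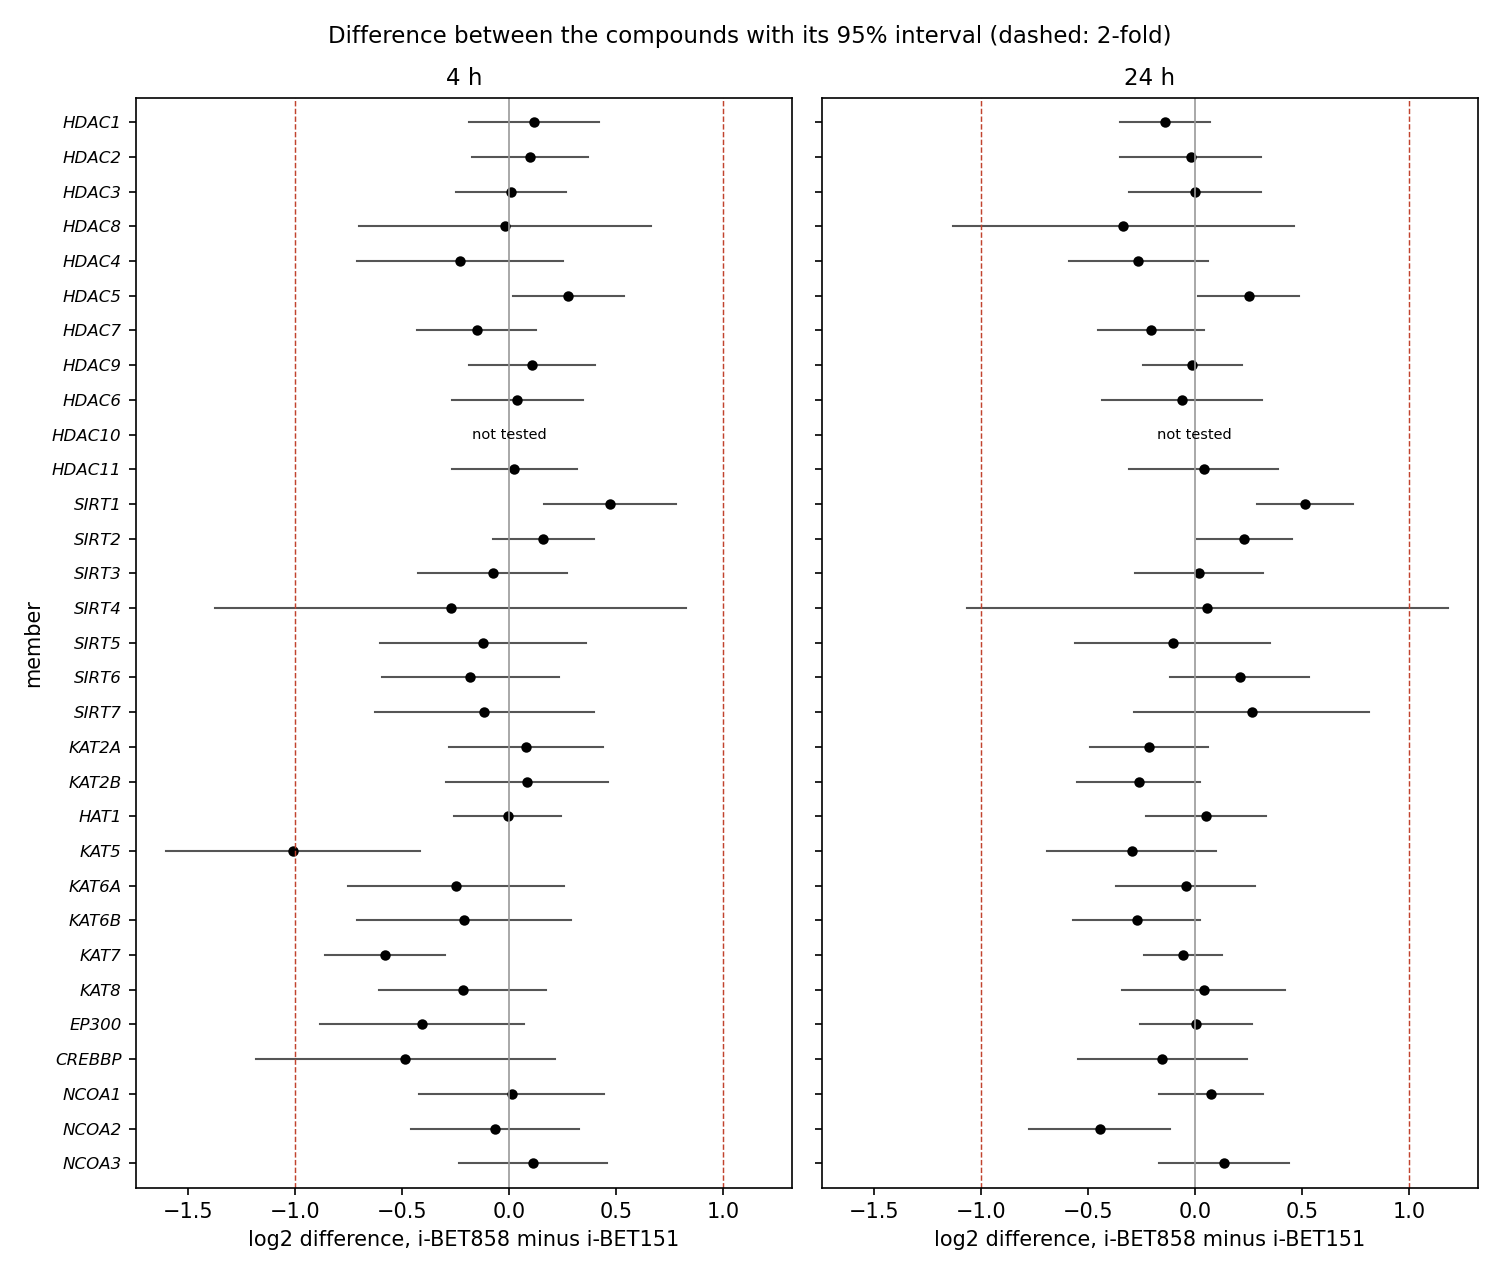
Difference of i-BET858 from i-BET151 in log2 units for the 30 tested members at 4 h and 24 h, with 95% confidence intervals that are not adjusted for the number of genes and dashed lines at 2-fold, where positive values are higher with i-BET858. The intervals of HDAC5, SIRT1, KAT5 and KAT7 at 4 h and of HDAC5, SIRT1, SIRT2 and NCOA2 at 24 h exclude zero. No member had an adjusted p under 0.05 in the edgeR fit shown, which had no replicate block. With the block 5 members were called at 4 h and 1 at 24 h.

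The enzymes work in complexes, and 111 genes of their partner subunits, substrate supply and BET readers were listed, of which 108 were tested per time point. After 4 h with i-BET858, 12 rose and 44 fell (median −0.34, beside 0.02 over all genes), where 14.5% of all genes were called higher and 16.3% lower. With i-BET151 10 rose and 16 fell (median −0.14, beside 0.01), where 7.81% and 8.43% of all genes did. After 24 h, 24 rose and 27 fell with i-BET858 (median 0.00; 20.5% and 21.3% of all genes) while 14 rose and 19 fell with i-BET151 (median 0.02; 17.2% and 16.6% of all genes), shares near those of all genes. The lower counts at 4 h were spread over several complexes. With i-BET858, all 5 genes of the MiDAC and MIER list fell, as did 12 of 23 SAGA and ATAC genes, 7 of 15 NuA4 genes, 5 of 9 scaffold genes of KAT6 and KAT7 and 3 of 4 NCoR and SMRT genes, while 1 gene in all of these lists rose. With i-BET151, 0, 2, 5, 2 and 1 genes of these 5 lists fell. With i-BET858 at 4 h 3 SIN3 genes rose and 3 fell of 13, 3 CoREST genes rose and 1 fell of 6, and 3 of 9 genes of acetyl-CoA and NAD supply rose and none fell. The NuRD list had 0 up and 4 down of 11, and the MSL and NSL list 1 up and 4 down of 10. Scaled by total library size, 10 partner genes rose and 49 fell with i-BET858 at 4 h (31.8% of all genes called). With the replicate block the calls with i-BET151 went from 26 to 51 at 4 h and from 33 to 52 at 24 h, beside the 32.7% and 45.9% of all genes above. With i-BET858 at 4 h the block gave 22 rises and 53 falls, beside 45.4% of all genes. With i-BET858 at 24 h 15 rose and 20 fell without i-BET858 replicate 1, where 5763 of 17641 genes were called. Scaled by total library size, 15 rose and 32 fell there (41.1% of all genes). Without replicate 3, 14 partner genes rose and 50 fell with i-BET858 at 4 h (41.9% of all genes called) and 34 rose and 40 fell at 24 h (60.7%). With i-BET151 12 rose and 30 fell there at 4 h (25.9%) and 27 rose and 33 fell at 24 h (54.2%). Leaving out 1 library brought the count with i-BET151 down to 15 at 4 h (DMSO replicate 1; 16 without i-BET151 replicate 1 or 2 and 17 without DMSO replicate 2) and to 21 at 24 h (DMSO replicate 2). Over all genes, these fits called 1685 to 1847 in place of 2791 at 4 h and 4382 in place of 5797 at 24 h.

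The partner genes with the largest differences are named by a rule of size in each comparison, so a gene named with 1 compound need not differ between the compounds. Between the compounds, 1 of 108 partner genes was called higher with i-BET858 and 3 lower at 4 h (0.971% of all genes called). At 24 h 0 of 108 were called (0.21% of all genes). JADE2, a scaffold of KAT7 complexes, was at 23.1, 19.9 and 21.4 CPM with DMSO at 24 h, 1.87, 1.47 and 0.790 CPM with i-BET858 and 2.37, 2.46 and 2.59 CPM with i-BET151. The treated libraries kept a small fraction of the DMSO level, with falls of 3.98 ± 0.27 and 3.14 ± 0.26 (adjusted p = 2e-06 and 1.3e-05). At 4 h JADE2 fell by 1.67 and 1.73. TBL1XR1, an exchange factor of NCoR/SMRT, was at 272, 273 and 283 CPM with DMSO at 24 h, 79.3, 77.2 and 63.1 CPM with i-BET858 and 107, 111 and 109 CPM with i-BET151, and it fell by 1.95 ± 0.11 and 1.36 ± 0.10 (adjusted p = 7.1e-07 and 8.4e-06). MSL1, the scaffold of the KAT8 dosage-compensation complex, fell by 1.63 and 1.32 at 4 h (adjusted p = 1.6e-05 and 0.00019), and KANSL1, the scaffold of its NSL complex, by 1.71 and 0.86 (adjusted p = 0.00035 and 0.032). Of the NuRD subunits, MTA3 fell by 1.51 with i-BET858 and CHD3 by 1.18 with i-BET151 at 24 h (adjusted p = 6.4e-06 and 0.001).

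Among the partners that rose, SAP30, a subunit of SIN3, had 1.76 and 1.72 at 4 h and 1.87 and 1.85 at 24 h (adjusted p from 7.7e-05 to 0.0015). ING1, the subunit of SIN3 that reads methylated histone H3, went from 28.6, 25.9 and 23.2 CPM with DMSO at 4 h to 93.7, 91.6 and 66.4 CPM with i-BET858 and 65.1, 62.4 and 45.97 CPM with i-BET151. All treated libraries were above DMSO, with rises of 1.70 and 1.15 (adjusted p = 4.1e-05 and 0.0012). Of the CoREST genes, RCOR2 rose by 1.58 and 1.14 at 4 h and RCOR1 by 0.82 with i-BET151 at 24 h (adjusted p = 4.1e-05, 0.00091 and 0.00031). BRD2, one of the BET proteins that the inhibitors bind, was at 191, 181 and 179 CPM with DMSO at 4 h, 498, 459.8 and 429 CPM with i-BET858 and 343, 300.1 and 288 CPM with i-BET151. It rose by 1.33 and 0.76 at 4 h and by 1.00 and 0.66 at 24 h (adjusted p from 6.9e-06 to 0.0078). The related BRD3, named after its values were seen, was called higher at 24 h alone, by 0.51 (i-BET858) and 0.44 (i-BET151).

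**Figure D5:**
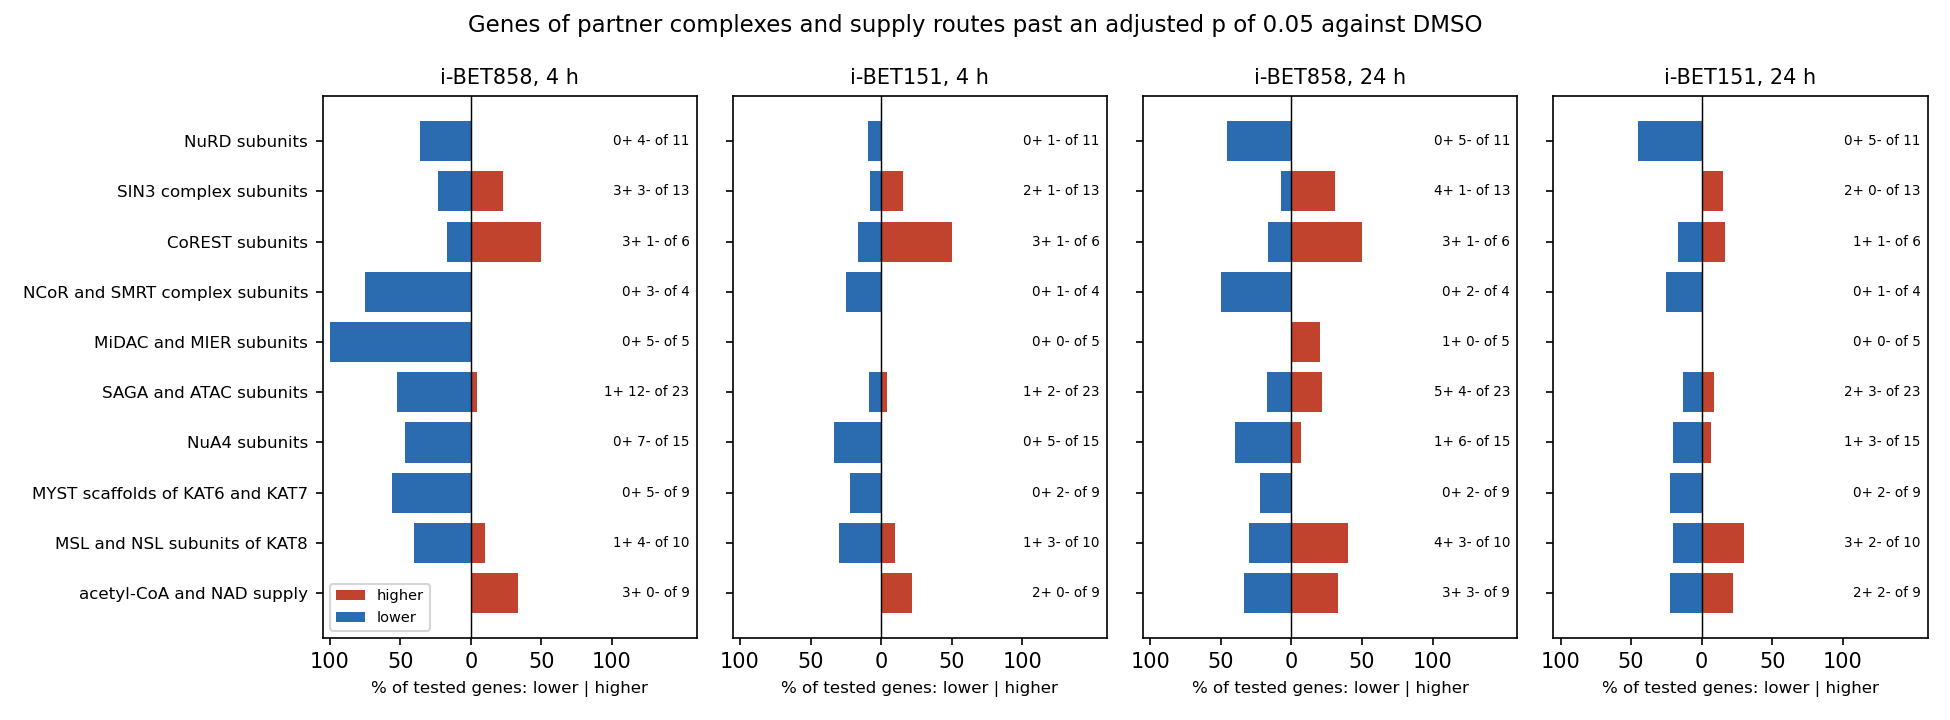
Share of the tested genes of each list of complex subunits or supply genes that were called lower (blue, to the left) and higher (red, to the right) against DMSO, in percent, for each compound and time, with the counts printed at the right. All 5 genes of the MiDAC and MIER list were lower with i-BET858 at 4 h, beside 16.3% of all genes. At 24 h 5 of 11 NuRD genes were lower with both compounds, beside 21.3% of all genes with i-BET858 and 16.6% with i-BET151.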

How the data were processed

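RNA of OVCAR-3 cells was measured in 18 libraries, 3 for each of 6 conditions. Per the labels and the study's methods, the authors checked reads with FastQC and aligned them to GRCh38 with STAR. The deposited values are STAR's raw counts per gene, without normalization, in 1 table for each time. The gene annotation and the strand column used for counting are not given in the sources used here, which limits genes whose exons overlap others. Identifiers were matched to GENCODE 44 for symbols and positions.

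For each time, the 9 libraries of its 3 conditions entered a single quasi-likelihood fit of edgeR 4.0.16 (R 4.3.3) after TMM scaling and removal of low counts by filterByExpr, and interactions and the vehicle times in a fit of all 18 libraries. Genes were called at a Benjamini-Hochberg adjusted p under 0.05 over all genes tested. Errors of log2 fold changes are standard errors and intervals are at 95%. Once each group's mean was subtracted, same-numbered libraries correlated across genes by 0.141 to 0.365 at 4 h (median 0.302) and 0.161 to 0.352 at 24 h (median 0.285), against −0.341 to 0.326 for other numbers. Pairs of replicate 3 with replicate 1 or 2 were all negative (−0.341 to −0.059 at 4 h and −0.329 to −0.218 at 24 h). Pairs of replicate 1 with replicate 2 ran from −0.039 to 0.233 at 4 h and from 0.202 to 0.326 at 24 h. These overlap the same-numbered values, so the correlations mostly set replicate 3 apart. They do not show that the numbers 1 and 2 pair libraries. All same-numbered values lay above 0.1, so the numbers were used as a block, and a block fit is given where it changes a call.

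Alternatives were DESeq2 1.42.0, edgeR with DESeq2's size factors or with total library size, no filter, at least 10 counts in every library, the 2 groups alone, all 18 libraries, the replicate block, replicates 1 and 2 alone, each library left out, and fold changes of at least 1.5 or 2. The same alternatives for partner genes, and canonical transcript lengths for levels, were added after seeing the data. The tests were tried on simulated counts. Members with a 2-fold call, an interaction or the highest level of a family are given in every library, and partner genes are named as the 3 largest rises and falls per comparison whose average log2 CPM reached 1, with 1 direction in all 9 pairs of libraries. The BET proteins enter the totals over partner genes, but their list is not reported separately here. The members and lists were chosen with earlier results of these data known.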

Additional observations from a re-analysis of the deposited data

Results flagged for a closer look

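The members below had an effect that differed between 4 and 24 h, tested by the drug-by-time interaction in edgeR at an adjusted p under 0.05. Values are the log2 fold change at 24 h minus that at 4 h.

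With i-BET858 the interaction was positive for KAT5 (1.67), EP300 (1.48), KAT7 (1.12) and KAT6A (1.11), acetyltransferases whose fold change was lower at 4 h than at 24 h. It was also positive for KAT2B (0.69), for the coactivators NCOA1 (0.94) and NCOA3 (0.82), and for the erasers HDAC9 (1.00), HDAC5 (0.64) and SIRT2 (0.42). It was negative for KAT2A (−1.30) and HDAC1 (−0.66). Of these, SIRT2 missed the threshold when DMSO replicate 1 or 3 or i-BET858 replicate 1 or 2 at 4 h, or DMSO replicate 1 or 2 or i-BET858 replicate 2 at 24 h, was left out (adjusted p up to 0.0665). KAT2B did so without DMSO replicate 3 or i-BET858 replicate 1 at 4 h or DMSO replicate 1 or i-BET858 replicate 1 at 24 h (adjusted p up to 0.0550). Without the filter on low counts SIRT2 and KAT2B were not called, and SIRT2 was not called with DESeq2's size factors or at least 10 counts in every library.

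With i-BET151 it was positive for HDAC9 (1.09), EP300 (1.04), KAT2B (1.01), NCOA1 (0.85), NCOA3 (0.77), HDAC5 (0.64) and KAT7 (0.57), and negative for KAT2A (−1.03). NCOA1 missed the threshold without DMSO replicate 3 or i-BET151 replicate 1 at 4 h or DMSO replicate 3 or i-BET151 replicate 2 at 24 h (adjusted p up to 0.0658), and NCOA3 without DMSO replicate 1 or i-BET151 replicate 2 at 4 h or DMSO replicate 2 or 3 or i-BET151 replicate 2 at 24 h (adjusted p up to 0.0698). KAT7 was not called without the filter (adjusted p = 0.0846).

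With the replicate block, SIRT7 (0.57, adjusted p = 0.013), HAT1 (0.43, 0.011), KAT6B (0.64, 0.025) and CREBBP (1.00, 0.00099) were also called for i-BET858. For i-BET151 the block added HDAC1 (−0.43, adjusted p = 0.0077), KAT5 (0.91, 0.024), KAT6A (0.89, 0.009), KAT6B (0.68, 0.025) and CREBBP (0.62, 0.042). Whether the interactions of the 2 compounds differ from each other was not tested.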

How the results depend on the processing

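Over 2362 values of single members under the alternatives other than a minimum fold change, 2119 kept their direction and their side of the threshold, 91 lost a call, 152 gained one, and 0 calls changed direction. Of the calls against DMSO, 9 of 12 with i-BET858 and 3 of 7 with i-BET151 at 4 h, and 11 of 16 and 9 of 11 at 24 h, held under all of these, as did 10 of 12 and 5 of 8 interactions. With 1 library left out the counts were 9 to 12 (i-BET858) and 3 to 8 (i-BET151) at 4 h, 13 to 19 and 9 to 13 at 24 h, 0 to 0 and 0 to 1 between the compounds at 4 and 24 h, 10 to 15 and 6 to 11 for the interactions of i-BET858 and i-BET151, and 0 to 0 for the vehicle. In the same order, 4125 to 5936 and 1685 to 3222 of 17614 to 17858 tested genes were called at 4 h. At 24 h 5763 to 7963 and 4272 to 6175 of 17574 to 17937 genes were called. Between the compounds 0 to 129 and 1 to 110 genes were called. For the interactions 4058 to 5217 and 1595 to 2671 of 18718 to 18892 genes were called, and for the vehicle 0 to 10. For i-BET151 the replicate block gave 12 calls at 4 h, 18 at 24 h and 13 interactions, a fold change of at least 2 gave 3, 4 and 4 (7.1%, 13.7% and 6.7% of all genes), and replicates 1 and 2 alone gave 20 at 24 h. For i-BET858 a fold change of at least 2 gave 5 calls at 24 h and 5 interactions (18.8% and 15.1% of all genes). With 1 library left out, 8 interactions reached 2-fold for i-BET858 without its replicate 3 at 4 h. For i-BET151, 1 interaction did so without DMSO replicate 3 or i-BET151 replicate 2 at 4 h or i-BET151 replicate 3 at 24 h. The 2-fold interactions over all genes were not counted in these fits. Between the compounds at 4 h, 1 member was called with total library size (1.93% of all genes), 2 with DESeq2 (5.21%), 2 without the filter (1.6%), 1 with at least 10 counts (1.6%), 5 with the block (9.63%), 3 with all 18 libraries (3.02%) and 1 with replicates 1 and 2 (2.29%). At 24 h 1 was called with DESeq2 (2.81%), 1 without the filter (1.08%), 1 with the block (4.37%) and 3 with replicates 1 and 2 (7.29%). For the vehicle, 2 were called without the filter (0.461%) and 2 with the block (2.07%). Where the cause of a change is not part of the setting itself, the cause was not tested. Beyond the calls given beside the results, the replicate block changed no other call of a member, and it ended none. The part of sequencing depth in the results of the lowest members, HDAC10 and SIRT4, was not tested. With 3 libraries per condition and replicate 3 apart, small differences may have been missed.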

Other observations

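The enzymes depend on acetyl-CoA and NAD, and 9 genes of their supply were counted. After 4 h, 3 of the 9 rose and none fell with i-BET858, where 14.5% of all genes were called higher and 16.3% lower. With i-BET151 2 rose and none fell (7.81% and 8.43% of all genes). After 24 h, 3 rose and 3 fell with i-BET858, where 20.5% of all genes were called higher and 21.3% lower. With i-BET151 2 rose and 2 fell (17.2% and 16.6% of all genes). ACSS2, which makes acetyl-CoA from acetate, rose by 0.89 with i-BET858 and 0.63 with i-BET151 at 4 h (adjusted p = 0.00046 and 0.0085) and by 0.50 and 0.38 at 24 h (adjusted p = 0.0088 and 0.042). NAMPT, the rate-limiting enzyme of NAD salvage, rose by 0.77 with i-BET858 at 4 h (adjusted p = 0.014) and by 0.58 and 0.41 with i-BET858 and i-BET151 at 24 h (adjusted p = 0.0011 and 0.011). ACSS1, the mitochondrial counterpart of ACSS2, fell by 1.47 and 0.90 at 24 h (adjusted p = 5.9e-06 and 0.00022) and had −0.02 and −0.11 at 4 h. Of the NMNAT enzymes, which make NAD from its mononucleotide, NMNAT3 rose 2.01-fold and 2.15-fold at 4 h (adjusted p = 0.02 and 0.022), NMNAT1 fell by 0.81 and 0.75 at 24 h (adjusted p = 0.025 and 0.043) and NMNAT2 fell to 0.353 of DMSO with i-BET858 at 24 h (adjusted p = 0.0012). NADSYN1 rose by 0.32 with i-BET858 at 24 h (adjusted p = 0.044). ACLY and NAPRT were not called in any of the 4 comparisons.

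The members called lower with i-BET858 at 4 h had a median gene span of 122 kb (n = 8, 7.61 to 915 kb), those called higher 40.3 kb (n = 4) and those not called 33.8 kb (n = 18). At 24 h the medians were 50.4 kb (n = 7), 61.2 kb (n = 9) and 25.2 kb (n = 14). With i-BET151 the medians in the same order were 148 kb (n = 6), 33.7 kb (n = 1) and 40.9 kb (n = 23) at 4 h. At 24 h with i-BET151 they were 45.7 kb (n = 4), 114 kb (n = 7) and 41.6 kb (n = 19). The spans overlap widely, these are descriptions without a test, and the part of gene length in the results was not tested.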
